A study of Rattus norvegicus with 4 samples.

Results

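The genes described here encode enzymes and partner proteins that modify histones, methylate or demethylate DNA, or move nucleosomes. They were taken from an array study of rat kidney by gene symbol. The symbols were those of histone deacetylases (Hdac), sirtuins (Sirt), SWI/SNF remodelling subunits and related genes (Smarc), lysine demethylases (Kdm) and lysine acetyltransferases (Kat). They also covered DNA methyltransferases and Tet enzymes, the Polycomb methyltransferases Ezh1 and Ezh2, arginine methyltransferases (Prmt) and SET domain genes (Setd). Jarid2, Suz12, Eed and Meaf6 were taken by name. The rule found 76 of 15923 probe sets, which represent 60 of the 10411 genes that a probe set names alone. The rule works on symbols, but the set was put together with earlier results of these data known. A further probe set carried Prmt1 together with another symbol and was left out.

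Kidney RNA came from male rats aged 9 weeks in 4 groups: spontaneously hypertensive (SHR) rats exposed to nicotine before birth, SHR rats exposed to saline, Brown Norway (BN) rats exposed to nicotine, and BN rats exposed to saline. SHR is an inbred strain with inherited high blood pressure and BN an inbred strain with normal blood pressure. The question of the series is what prenatal nicotine does to the kidney transcriptome. RNA of 13 animals (SHR nicotine) or 12 animals (each other group) was combined into 1 pool per group and hybridised to 1 RAE-230a array, so no group has a replicate and the spread between animals is not visible.

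Histone tails are acetylated by acetyltransferases and deacetylated by Hdac enzymes and some sirtuins, and acetylation generally accompanies active genes. Methyl groups are added to histone lysines by SET domain enzymes and taken off by Kdm enzymes, and Polycomb repressive complex 2 (Ezh1 or Ezh2 with Eed and Suz12, and Jarid2 as an accessory subunit) places a repressive methyl mark. SWI/SNF complexes slide or evict nucleosomes with the energy of ATP. In kidney these enzymes are known for their part in nephron development and in the response of tubules to injury, and several, such as Hdac6 and the mitochondrial sirtuins, act mainly on proteins other than histones.

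Promoter windows are shown for the 3 genes on which the results below turn: Hdac6 for the strain difference with the smallest p among these genes, and Meaf6 and Jarid2 for the largest nicotine ratios averaged over strains. Each window runs from 250 bases before to 50 bases after the gene's start in RefSeq (build GRCr8, a BN genome), with CpG dinucleotides, the sites of DNA methylation, in capitals. The Hdac6 window lies at chrX:17222925-17223224 on the plus strand, the Meaf6 window at chr5:142629185-142629484 on the plus strand and the Jarid2 window at chr17:20161921-20162220 on the minus strand.
Hdac6: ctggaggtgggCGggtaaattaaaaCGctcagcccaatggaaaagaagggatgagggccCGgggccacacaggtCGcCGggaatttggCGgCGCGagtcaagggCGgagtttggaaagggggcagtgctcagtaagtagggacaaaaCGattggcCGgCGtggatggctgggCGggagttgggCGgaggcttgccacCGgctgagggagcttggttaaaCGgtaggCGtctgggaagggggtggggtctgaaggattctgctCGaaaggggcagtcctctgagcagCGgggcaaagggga
Meaf6: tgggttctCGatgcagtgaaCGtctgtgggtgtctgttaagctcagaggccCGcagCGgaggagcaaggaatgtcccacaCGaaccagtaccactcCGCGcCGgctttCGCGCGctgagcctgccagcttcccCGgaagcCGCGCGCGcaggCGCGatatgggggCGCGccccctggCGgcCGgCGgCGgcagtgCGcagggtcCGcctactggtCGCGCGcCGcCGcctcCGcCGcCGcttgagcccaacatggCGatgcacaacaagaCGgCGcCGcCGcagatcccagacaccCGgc
Jarid2: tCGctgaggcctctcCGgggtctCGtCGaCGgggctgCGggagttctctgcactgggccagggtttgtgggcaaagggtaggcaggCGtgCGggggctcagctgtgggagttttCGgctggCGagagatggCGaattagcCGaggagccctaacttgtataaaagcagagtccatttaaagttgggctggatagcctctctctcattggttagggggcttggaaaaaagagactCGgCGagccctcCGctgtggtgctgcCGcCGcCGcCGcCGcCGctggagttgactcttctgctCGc
The Meaf6 window held 40 CpG dinucleotides, a number reached by 3.24% of the 33469 windows in the RefSeq table. The Jarid2 window held 22 (reached by 21% of windows) and the Hdac6 window 19 (reached by 25.7%). The GC, CCAAT and TATA boxes were searched on both strands, and none of these motifs contains another. The GC box (GGGCGG) occurred 4 times in the Hdac6 window and in neither of the other windows, the CCAAT box (CCAAT) 2 times in Hdac6 and 1 time in Jarid2, and the TATA box (TATAAA) 1 time in Jarid2. Of the 60 genes, 54 had a window by symbol, with 64 windows in all. Their median CpG count was 24.5, against 7 in the 33405 windows of other genes. A GC box stood in 71.9% of the windows of these genes and in 33.1% of all windows, a CCAAT box in 45.3% and 37.5%, and a TATA box in 3.12% and 14.2%. These matches describe letters in the reference sequence, and the SHR sequence of these windows was not used here. Windows of other genes measured on these arrays were not counted apart, so the shares are not shown to be particular to chromatin genes.

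The deposited values are MAS5 signal intensity on a linear, arbitrary scale, so a level is compared between arrays for 1 probe set and not between probe sets. A floor of 44.5, the 40th percentile over the 4 arrays, replaced lower signals before log2 was taken. A probe set counted as measured in a comparison if its highest signal there reached 89.0, that is 2 times the floor. The floor was reached by 58.9% to 60.7% of probe sets per array, and precision is limited by having 4 arrays. Of the kidney markers, the proximal tubule genes Slc34a1, Lrp2 and Miox and the uromodulin gene Umod of the thick ascending limb were measured on every array. The podocyte marker Wt1 stayed below 89.0 on every array, while 1 probe set each of Podxl, Synpo and Nphs1 was measured.

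Of the 76 probe sets, 42 were measured on at least 1 array (55.3%, against 46.7% of all probe sets), and these 42 represent 40 genes. Another 17 reached the floor on some array but not 89.0, and 17 lay below the floor on all 4 arrays. Each family had measured members: 6 of 10 Hdac probe sets, 4 of 5 sirtuin, 6 of 17 Smarc, 9 of 14 Kdm, 6 of 9 acetyltransferase (Kat and Meaf6), 2 of 5 Prmt, 4 of 9 Setd, 4 of 5 Polycomb and 1 of 2 DNA methylation probe sets. Dnmt1, the maintenance DNA methyltransferase, read 40 and 32.0 in SHR nicotine and saline and 39.2 and 40 in BN nicotine and saline, below the floor on each array. Ezh2, the Polycomb methyltransferase of dividing cells, read 16.9, 15.1, 7.9 and 11.6 in the same order of groups, again below the floor. Changes in Dnmt1 and Ezh2 were therefore not detectable here. Of 14 probe sets for markers of dividing cells, 4 were measured, namely Pcna (365.1 to 393.6) and 3 of Ccnd1, and the others, among them those of Mki67, Top2a and the Mcm genes, stayed below 89.0 on every array.

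**Figure D1:**
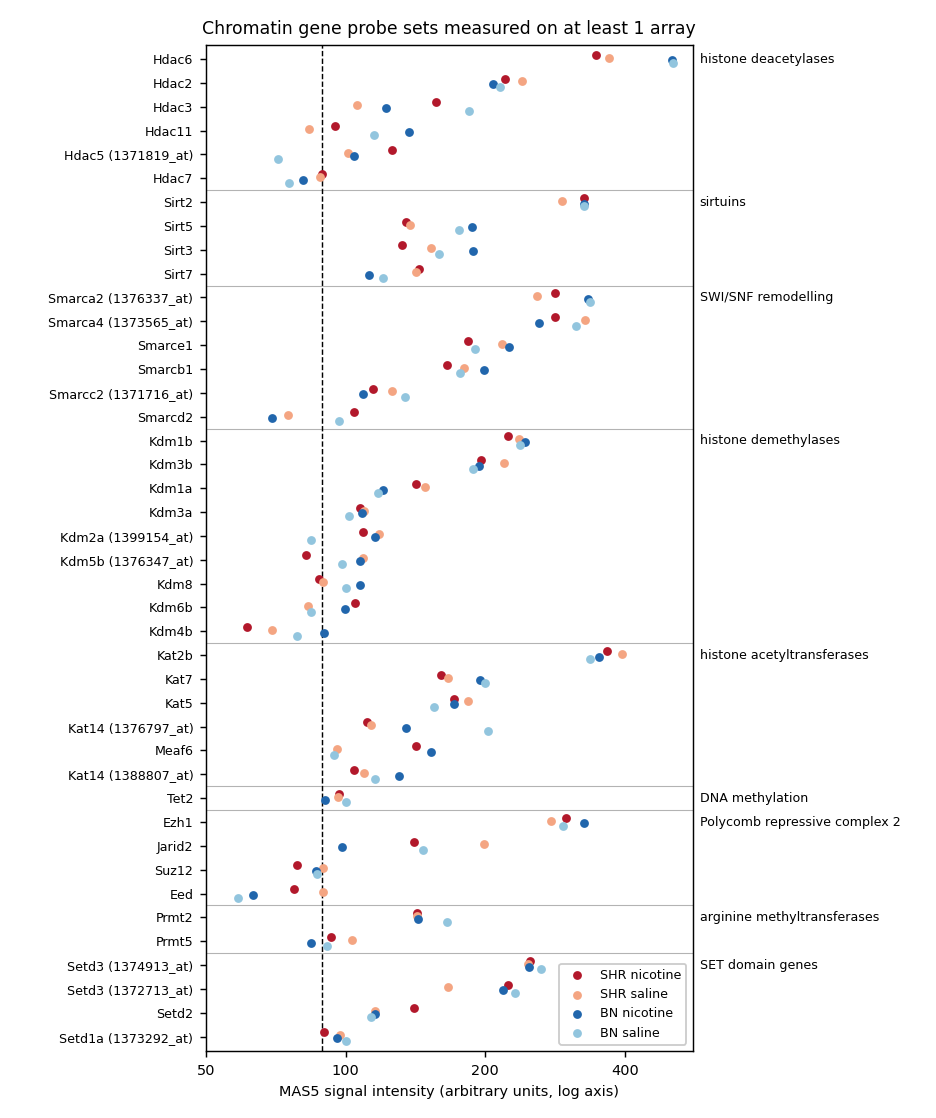
Signal intensity (log axis, arbitrary units) of the 42 measured chromatin probe sets, 1 point for each array and grouped by family; the dashed line marks 89.0, the limit for a measured probe set. For most probe sets the 4 points lie close together, with Hdac6 as a clear gap between SHR and BN and Meaf6 as a clear gap between nicotine and saline; levels of different probe sets are not comparable.

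Between strains, 5 of these probe sets were lower in SHR and 1 was higher. Lower were Hdac6, a cytoplasmic deacetylase of tubulin, Hdac11, the class IV deacetylase, Sirt5, a mitochondrial sirtuin that removes succinyl groups, Smarca2, an ATPase of SWI/SNF complexes, and 1 of 2 probe sets of Kat14, a subunit of the ATAC acetyltransferase complex. Higher was Jarid2, which brings Polycomb repressive complex 2 to chromatin. Their average differences lay between 1.24-fold and 1.47-fold.

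The test was limma, with strain and treatment as additive terms and Benjamini-Hochberg adjustment over all 7037 probe sets tested. Of the 76 probe sets, 37 passed the filter on low signals and were tested. The 6 calls are 16.2% of these 37, against 18.1% of all probe sets tested (9.42% lower and 8.67% higher), so the share is near the background. At an unadjusted p under 0.05 stood 9 of the 37, against 30.5% of all. The median log2 difference was -0.05, beside 0.002 over all probe sets tested. Signals of the 2 SHR and 2 BN arrays did not overlap for 18 of the 37, which is 48.6%, against 59.8% of all. SHR was the higher strain without overlap in 7 of the 37, against 30.8% of all, and the lower one in 11 of the 37, against 28.9% of all. The model leaves 1 residual degree of freedom, so its p-values rest mostly on the spread borrowed from other probe sets of similar signal. No group has a replicate, so spread between like pools or between animals was not measured. The residual of a probe set mixes variation of the single pools and arrays with a nicotine effect not shared by SHR and BN, and the model cannot separate them.

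Among the deacetylases, Hdac6 (probe set 1372592_at) read 346.1 and 369.4 in the SHR nicotine and SHR saline pools, against 505.3 and 508.8 in the BN nicotine and BN saline pools. Both SHR pools lay below both BN pools, and the nicotine and saline pools of a strain lay close together. The average log2 difference was -0.50 (SE 0.08, 1.42-fold lower in SHR, adjusted p = 0.000315 with limma). Hdac11 read 94.8 and 83.5 in SHR nicotine and saline, against 137.3 and 114.9 in BN nicotine and saline, again without overlap between strains. Its log2 difference was -0.50 (SE 0.16, adjusted p = 0.0343 with limma).

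Hdac2, a nuclear class I enzyme, was 220.8 and 239.8 in SHR nicotine and saline, against 207.9 and 215.6 in BN nicotine and saline, a difference that missed the threshold. Hdac5, a class IIa enzyme that shuttles between nucleus and cytoplasm, had a log2 difference of 0.39 (SE 0.16, adjusted p = 0.118 with limma). Its second probe set stayed under the floor on all arrays, at 20.5 to 33.5. Hdac3, the enzyme of the nuclear receptor corepressor complexes, did not order the arrays by strain and is described with nicotine below. Hdac1, Hdac4 and Hdac10 were not measured on any array.

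Among the sirtuins, Sirt5 read 135.2 and 137.4 in SHR nicotine and saline, against 187.0 and 175.9 in BN nicotine and saline. The strains did not overlap, and the average log2 difference was -0.41 (SE 0.13, 1.33-fold lower in SHR, adjusted p = 0.0311 with limma). Sirt3, the main mitochondrial deacetylase, was 132.6 and 152.8 in SHR nicotine and saline, against 188.7 and 158.8 in BN nicotine and saline, also without overlap. Its difference of -0.28 missed the threshold (adjusted p = 0.175), as did that of 0.30 for the nucleolar Sirt7 (adjusted p = 0.162). For Sirt2, a mainly cytoplasmic sirtuin, the strains overlapped.

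In the SWI/SNF group, the Smarca2 probe set 1376337_at read 283.4 and 258.3 in SHR nicotine and saline, against 333.4 and 336.1 in BN nicotine and saline. Both SHR pools were below both BN pools, by a log2 average of -0.31 (SE 0.10, 1.24-fold lower in SHR, adjusted p = 0.0342 with limma). A second Smarca2 probe set lay below the floor, at 15.4 to 23.1. Smarca4, the alternative ATPase of the same complexes, had a strain difference of 0.09 (SE 0.10, adjusted p = 0.576), and the core subunits Smarcb1, Smarcc2 and Smarce1 also missed the threshold, with log2 differences from -0.12 to -0.01.

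Kat14 had 2 measured probe sets, and they did not give the same result. Probe set 1376797_at read 111.3 and 113.4 in SHR nicotine and saline, against 135.1 and 202.9 in BN nicotine and saline, a log2 average of -0.56 (SE 0.15, adjusted p = 0.0146 with limma). The BN saline pool stood apart. With strain as the only factor the call was lost (adjusted p = 0.0822 with limma), and in that model the difference was -0.27 without BN saline (adjusted p = 0.368) and -0.85 without BN nicotine (adjusted p = 0.0302). Probe set 1388807_at read 104.5 and 109.8 in SHR nicotine and saline, against 130.4 and 115.9 in BN nicotine and saline, with a log2 average of -0.20 (SE 0.15, adjusted p = 0.41). Kat7, the catalytic subunit of the HBO1 complex, had a difference of -0.28 (SE 0.12, adjusted p = 0.122), and Kat2b and Kat5 differed by 0.14 and 0.12 with no call.

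Jarid2 read 140.6 and 198.5 in the SHR nicotine and saline pools, against 98.3 and 147.1 in the BN nicotine and saline pools. Within each treatment SHR was higher, but SHR nicotine lay below BN saline, so the strains overlapped. The log2 average was 0.47 (SE 0.13, 1.39-fold higher in SHR, adjusted p = 0.0187 with limma), and with strain as the only factor the adjusted p was 0.191. Ezh1, the Polycomb methyltransferase of resting cells, read 298.5 and 277.7 in SHR nicotine and saline, against 326.6 and 293.8 in BN nicotine and saline, with overlap and a difference of -0.11 (SE 0.10, adjusted p = 0.496). Eed and Suz12, the core subunits that carry the catalytic one, reached 89.0 in the SHR saline pool and in no other, and were not tested. Under saline, Eed read 89.5 in SHR against 58.7 in BN, a 1.53-fold difference, and under nicotine 77.5 in SHR against 63.3 in BN.

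None of the 8 Kdm probe sets, 2 Prmt probe sets and 4 Setd probe sets tested passed with limma. The Kdm differences ran from -0.23 for Kdm8 to 0.29 for Kdm1a, the flavin-dependent demethylase LSD1 (adjusted p = 0.175). Setd3, which methylates actin, had differences of -0.22 and -0.04 at its 2 measured probe sets. Tet2, which oxidises methylated cytosine, was 96.7 and 96.3 in SHR nicotine and saline, against 90.2 and 100.4 in BN nicotine and saline, with overlap.

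The calls depended on the fit. With strain as the only factor, Hdac6, Sirt5 and Smarca2 passed on all 4 arrays. When in that model each array was also left out in turn, Hdac6 passed in all 4 fits and Kat14 in the fit without BN nicotine, while Hdac11, Sirt5, Smarca2 and Jarid2 passed in none. In these fits the Jarid2 difference ranged from 0.18 without BN nicotine, through 0.23 without SHR saline and 0.72 without SHR nicotine, to 0.77 without BN saline.

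**Figure D2:**
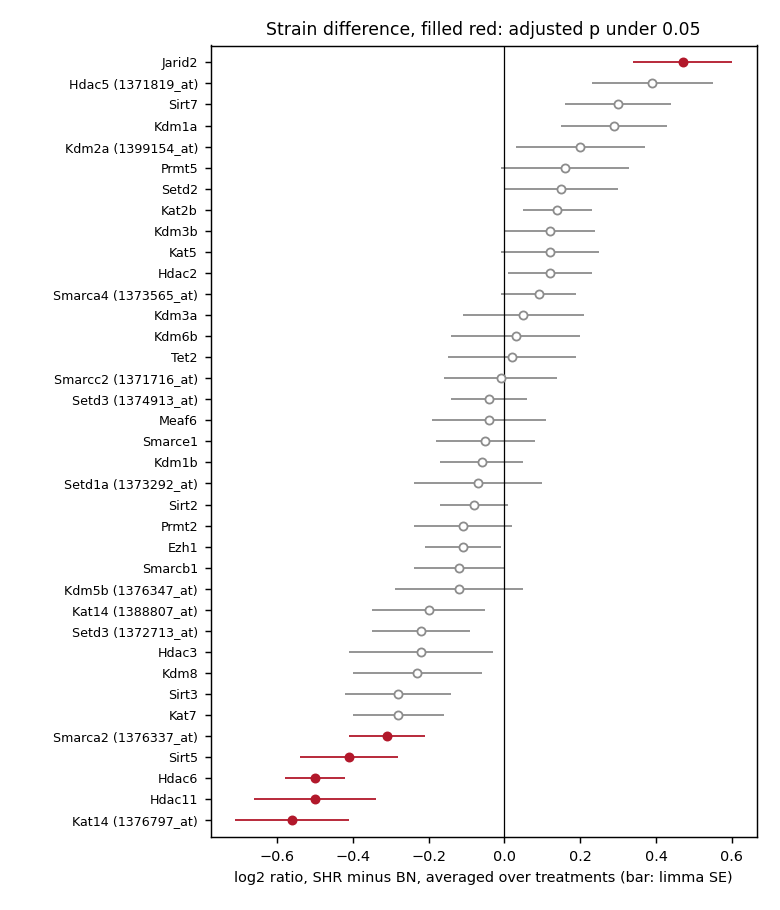
Average log2 ratio of SHR minus BN with its limma standard error for the 37 chromatin probe sets tested, ordered by size. Filled red points passed at an adjusted p under 0.05: Jarid2 at 0.47, and Smarca2, Sirt5, Hdac6, Hdac11 and 1 Kat14 probe set from -0.31 to -0.56.

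Counted by size in single pools, with no test, 3 of 39 measured probe sets were at least 1.5-fold apart between strains under saline (7.69%, against 8.12% of all, 4.17% higher and 3.95% lower). They were Eed, higher in SHR, and Kat14 (1376797_at, 1.79-fold) and Hdac3 (1.75-fold), lower in SHR. Eed counted as measured only through SHR saline, at 89.5 just above the limit of 89.0, against 58.7 in BN saline. Under nicotine it was 1 of 40 (2.5%, against 8.44% of all, 4.2% higher and 4.24% lower): Smarcd2, an accessory subunit of SWI/SNF complexes, at 104.3 in SHR against 69.3 in BN, a log2 ratio of 0.59. Under nicotine, the histone demethylase Kdm4b was 61.2 in SHR against 90.0 in BN, 1.47-fold lower in SHR. Smarcd2 and Kdm4b likewise reached 89.0 in this comparison only on the array where they were high. The Setd3 probe set 1372713_at under saline was 166.1 in SHR against 232.3 in BN, and Kdm2a (1399154_at) under saline was 118.1 in SHR against 84.1 in BN. The other Kdm2a probe set, 1390522_at, below 89.0, was 49.4 in SHR saline against 52.2 in BN saline.

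Other chromatin genes were counted from a list of 149 that the rule did not take. Of these, 107 had a probe set, and 73 of their 137 probe sets were tested for strain. With limma, 3 were higher and 5 lower in SHR, or 11% of those tested beside 18.1% of all. Of 11 histone chaperone probe sets tested, 4 were lower, from the 3 genes Nap1l1, Anp32e and Anp32b, against 9.42% of all. The 5 lower calls of the whole list became 3 with 1 probe set per gene and 2 after quantile normalisation. Nap1l1, a nucleosome assembly protein, was 1.79-fold lower in SHR at probe set 1371872_at (165.7 and 151.0 in SHR nicotine and saline, against 282.0 and 284.7 in BN nicotine and saline, adjusted p = 2.61e-05) and 1.19-fold lower at 1370826_at. Its probe set 1373473_a_at, at 233.3 and 102.0 in SHR nicotine and saline and 117.9 and 168.5 in BN nicotine and saline, had a difference of 0.13 with no call. Anp32e, which removes the variant histone H2A.Z, was 1.58-fold lower in SHR at 1 probe set, with a difference of -0.26 and no call at the other, and Anp32b was 1.24-fold lower. The remaining lower call was the Polycomb protein gene Cbx7, 1.69-fold lower, where SHR saline was under the floor. Cbx7 read 66.3 and 44.2 in SHR nicotine and saline, against 73.1 and 114.8 in BN nicotine and saline. Only the BN saline pool reached the limit for a measured probe set, and the strains lay closer together under nicotine than under saline. The higher calls were Baz1b (1.31-fold), Ss18 (1.24-fold) and 1 of 2 probe sets of Cbx6 (1.23-fold).

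Several measures moved with strain on the same arrays. Of 8 proximal tubule marker probe sets, 6 were higher and 1 lower in SHR, with summed signals of 18977 and 19386 in SHR nicotine and saline, against 16084 and 15561 in BN nicotine and saline. The 3 dividing cell calls, lower in SHR, all belonged to Ccnd1; the list's summed signals were 1475 and 1509 in SHR nicotine and saline and 1731 and 1843 in BN nicotine and saline. Podocyte markers had 1 lower call of 2 tested, endothelial markers 1 higher of 3, fibroblast and smooth muscle markers 2 higher of 6, and immune markers 1 higher of 2. Thick ascending limb markers had 1 call each way of 2 tested, distal tubule markers 1 lower of 2, collecting duct markers 1 higher and 2 lower of 5, and red cell markers 0 of 1. The ratio of 3' to 5' probes is a measure of RNA quality. For beta-actin it was 1.34 and 1.39 in SHR nicotine and saline and 1.49 and 1.54 in BN nicotine and saline. For Gapdh it was 1.09 and 1.07 in BN nicotine and saline. SHR nicotine (1.11) lay above both BN pools and SHR saline below both, so the Gapdh ratio did not separate the strains. The part of these measures in the strain calls was not tested, and in whole-tissue RNA fewer cells of a type and less RNA per cell cannot be told apart. Whether SHR and BN differ in sequence under the probes of a called probe set was not tested either.

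Nicotine against saline gave no call among these genes. With limma over both strains, 0 of 37 tested probe sets had an adjusted p under 0.05, as did 0 of 6924 in all (percent called 0), and the smallest adjusted p was 0.263 for these genes and 0.0711 over all. At an unadjusted p under 0.05 stood 4 of the 37, against 5.43% of all tested: Meaf6, Jarid2, Hdac5 and Smarca4. Meaf6 and Jarid2 are in the rule by name and were named in an earlier result of these data. Counts that include them are therefore no independent support for a nicotine effect. The median log2 difference was -0.01, beside 0.001 over all. Signals of the 2 nicotine and 2 saline arrays did not overlap for 9 of the 37 (24.3%, against 20.8% of all), with nicotine higher in 5 of the 37 (against 10.3% of all) and lower in 4 of the 37 (against 10.5% of all). The other chromatin genes had 0 of 73 at an adjusted and 0 of 73 at an unadjusted p under 0.05, and their median was 0.01.

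Meaf6 and Jarid2 were already named in an earlier result of these data, so their ratios are no independent support for a nicotine effect. Meaf6 encodes a small subunit shared by several acetyltransferase complexes, those built on Kat5, Kat6 and Kat7 enzymes. It read 141.6 in the SHR nicotine pool against 96 in the SHR saline pool, and 153.1 in the BN nicotine pool against 94.2 in the BN saline pool. Both nicotine pools were above both saline pools, by 1.47-fold in SHR and 1.62-fold in BN. The log2 average was 0.63 (SE 0.15, adjusted p = 0.263 with limma, 0.234 to 1 over the alternative fits).

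Of the enzymes that Meaf6 binds, Kat5 and Kat7 were measured, and their nicotine and saline pools overlapped. Kat5 was 171.0 with nicotine and 183.6 with saline in SHR, and 171.7 with nicotine and 155.0 with saline in BN. Kat7 was 160.5 with nicotine and 165.9 with saline in SHR, and 195.3 with nicotine and 199.8 with saline in BN. The 3 probe sets of Kat6b did not reach 89.0 on any array, so no ratio is given as measured; 1376240_at read 63.2 with nicotine and 28.7 with saline in SHR, and 46.0 with nicotine and 44.4 with saline in BN.

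Jarid2 was lower in the nicotine pool of each strain, at 140.6 with nicotine and 198.5 with saline in SHR, and 98.3 with nicotine and 147.1 with saline in BN. The log2 ratios were -0.50 and -0.58 and the average was -0.54 (SE 0.13, adjusted p = 0.28 with limma, 0.244 to 1 over the alternative fits). With nicotine as the only factor and 1 array left out, the average ranged from -0.28 without BN nicotine, through -0.32 without SHR saline, to -0.80 without SHR nicotine. The 2 nicotine pools were below the 2 saline pools without overlap. Its partner Ezh1 was 298.5 with nicotine and 277.7 with saline in SHR, and 326.6 with nicotine and 293.8 with saline in BN, a log2 ratio of 0.10 (SHR) and 0.15 (BN). The nicotine ratio in SHR was -0.21 (log2) for Eed and -0.19 (log2) for Suz12. In BN, neither reached 89.0 in a pool.

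The next largest nicotine averages were smaller. Hdac5 was 125.7 with nicotine and 101.4 with saline in SHR, and 104.1 with nicotine and 71.5 with saline in BN, a log2 average of 0.43 (SE 0.16, adjusted p = 0.743 with limma). Kdm6b, which removes the Polycomb methyl mark, was 104.9 with nicotine and 82.9 with saline in SHR, and 99.6 with nicotine and 84.2 with saline in BN, a log2 average of 0.29 (adjusted p = 0.988). For Kdm6b both nicotine pools lay above both saline pools, and for Hdac5 likewise, though BN nicotine (104.1) was close to SHR saline (101.4). With nicotine as the only factor, the Hdac5 average was 0.17 without BN saline and 0.68 without SHR saline. Hdac11 had an average of 0.22, which was -0.05 without BN nicotine and -0.01 without SHR saline, with nicotine as the only factor.

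On the lower side, Smarca4 was 282.9 with nicotine and 328.4 with saline in SHR, and 261.7 with nicotine and 314.0 with saline in BN, without overlap and with a log2 average of -0.24 (SE 0.09, adjusted p = 0.743 with limma). A further Smarca4 probe set, 1385011_at, below 89.0, had 76.6 with nicotine and 75.3 with saline in SHR, and 62.3 with nicotine and 61.2 with saline in BN, so it did not show that difference. Smarcc2, a scaffold of the same complexes, averaged -0.22, at 114.6 with nicotine and 125.8 with saline in SHR, and 109.1 with nicotine and 134.3 with saline in BN. Kat14 averaged -0.31 at 1376797_at, which was 0.11 without BN saline with nicotine as the only factor, and 0.05 at 1388807_at. For Tet2 the ratio was 0.01 (log2, SHR) and -0.15 (log2, BN).

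**Figure D3:**
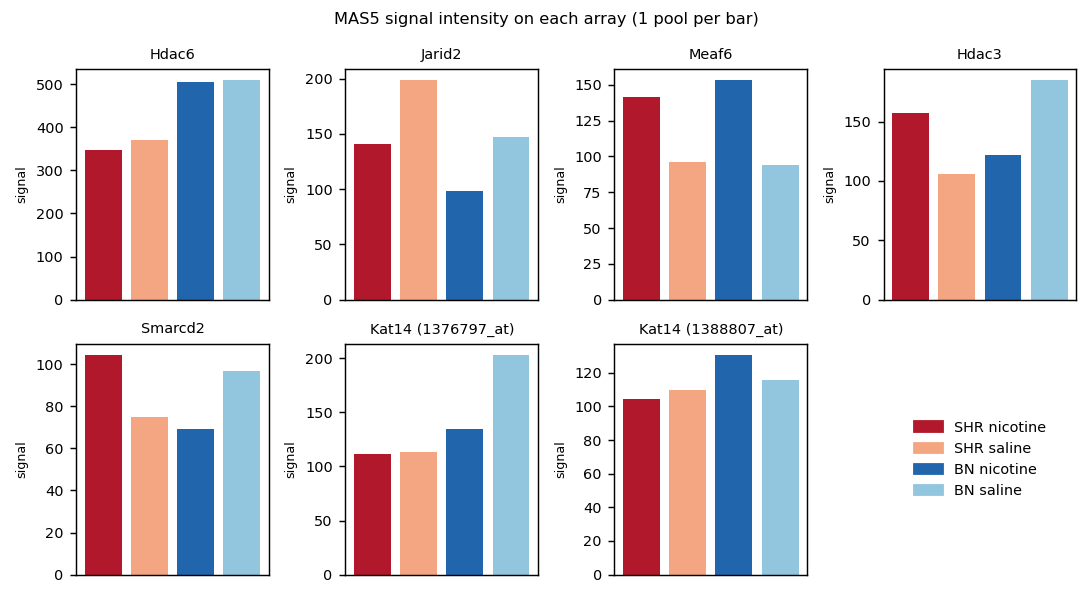
Signal intensity on each array (bars from 0, 1 pool per bar, in the order SHR nicotine, SHR saline, BN nicotine, BN saline) for Hdac6, Jarid2, Meaf6, Hdac3, Smarcd2 and both Kat14 probe sets. Hdac6 separates the strains, Meaf6 separates nicotine (141.6 and 153.1) from saline (96 and 94.2), and Hdac3 and Smarcd2 have opposite nicotine ratios in SHR and BN.

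Within SHR, with 1 pool per treatment and no test, 0 of 41 measured probe sets were at least 1.5-fold apart, against 1.98% of all (1.07% higher and 0.904% lower). The median log2 ratio was -0.05, beside -0.007 over all. The largest positive ratios belonged to Hdac3 (156.9 under nicotine against 105.6 under saline, 1.49-fold), Meaf6, Smarcd2 (104.3 against 75.1, 1.39-fold) and the Setd3 probe set 1372713_at (224.4 against 166.1, 1.35-fold). The other Setd3 probe set was 250.3 under nicotine against 247.3 under saline. The largest negative ratios belonged to Jarid2, Kdm5b, a demethylase of active promoters (82.2 against 108.9, 1.32-fold lower), Smarce1 (183.9 against 217.5) and Smarca4.

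Within BN, 3 of 39 measured probe sets were at least 1.5-fold apart (7.69%, against 1.63% of all, 0.735% higher and 0.894% lower): Meaf6 higher, and Hdac3 and the Kat14 probe set 1376797_at lower under nicotine. Hdac3 was 122.1 under nicotine against 184.7 under saline, 1.51-fold lower, and Kat14 was 135.1 against 202.9, a log2 ratio of -0.59. The other Kat14 probe set was 130.4 under nicotine against 115.9 under saline, and the mean log2 ratio of both was -0.21. Jarid2, at -0.58, fell just short of that size. Meaf6 was named in an earlier result of these data, so the count that includes it is no independent support. Smarcd2 was 69.3 under nicotine against 96.6 under saline, 1.39-fold lower. Hdac3 and Smarcd2 were the 2 of 38 chromatin probe sets measured in both strains with opposite nicotine ratios of at least 0.32 (log2) each, against 0.953% of all, a difference between strains that was not tested. In each strain Smarcd2 reached 89.0 only in its higher pool. Next on the higher side were Hdac5 (104.1 against 71.5, 1.46-fold), Kdm2a (1399154_at, 115.6 against 84.1, 1.37-fold) and Hdac11 (1.20-fold). Hdac5 and this Kdm2a probe set reached 89.0 in BN only under nicotine. The other Kdm2a probe set, 1390522_at, below 89.0, was 41.0 under nicotine against 52.2 under saline. The median over the 39 was 0.03, beside 0.004 over all.

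The median nicotine ratio of the Kdm demethylases was small in both strains, though single probe sets had larger ratios. In SHR, 7 of 8 measured probe sets were lower in the nicotine pool, with a median log2 ratio of -0.07 and a range from -0.41 (Kdm5b) to 0.34 (Kdm6b). In BN, 9 of 9 were higher, with a median of 0.10 and a range from 0.03 to 0.46 (Kdm2a). These counts depend on the limit of 89.0. In BN, Kdm2a (1399154_at), Kdm4b (90.0 against 78.6) and Kdm6b reached it only with nicotine. Kdm5b and Kdm8 in SHR did so only with saline, and Kdm6b only with nicotine. Below it in BN, Kdm5a (1373867_at) was 73.0 with nicotine and 86.3 with saline, and Kdm2a (1390522_at) was 41.0 and 52.2. Below it in SHR, Kdm2a (1390522_at) was 65.5 with nicotine and 49.4 with saline, Kdm4b 61.2 and 69.4, and Kdm5a (1373867_at) 87.7 and 88.4. The remaining Kdm probe sets lay below the floor. The share over all probe sets was not counted, so these counts are not read as a result about the family. Over all probe sets the medians were -0.007 in SHR and 0.004 in BN, the SD of a single ratio was 0.21 and 0.20, and the difference between strains was not tested. Such counts were not limited to the Kdm genes: for acetyltransferase probe sets the nicotine pool was lower for 5 of 6 in SHR and higher for 4 of 6 in BN. The nicotine pool was higher for 2 of 4 sirtuin, 2 of 6 Smarc, 4 of 6 Hdac, 3 of 4 Setd and 1 of 2 Prmt probe sets in SHR, and for 3 of 4 sirtuin, 2 of 6 Smarc, 2 of 5 Hdac, 1 of 4 Setd and 0 of 2 Prmt probe sets in BN.

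Across the measured members of the set, the SD of the nicotine log2 ratio was 0.24 in SHR and 0.28 in BN, against 0.21 and 0.20 over all measured probe sets. Those members include Meaf6 and Jarid2, which an earlier result of these data had named. The SD of the strain ratio was 0.29 under nicotine and 0.33 under saline, against 0.38 over all for both. Of the immune cell markers, 3 of 7 probe sets were measured. The summed signals of all 7 were 3636 under nicotine against 3069 under saline in SHR, and 2561 against 2311 in BN. Cd74 and Lyz2 made up most of each sum, with 1706.1 and 1742.4 in SHR nicotine. Neither had a nicotine call, and the probe sets of Ptprc, Cd68 and Cd3e stayed below 89.0. The part of these markers in the nicotine ratios was not tested. The summed dividing cell markers were 1475 under nicotine against 1509 under saline in SHR and 1731 against 1843 in BN.

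**Figure D4:**
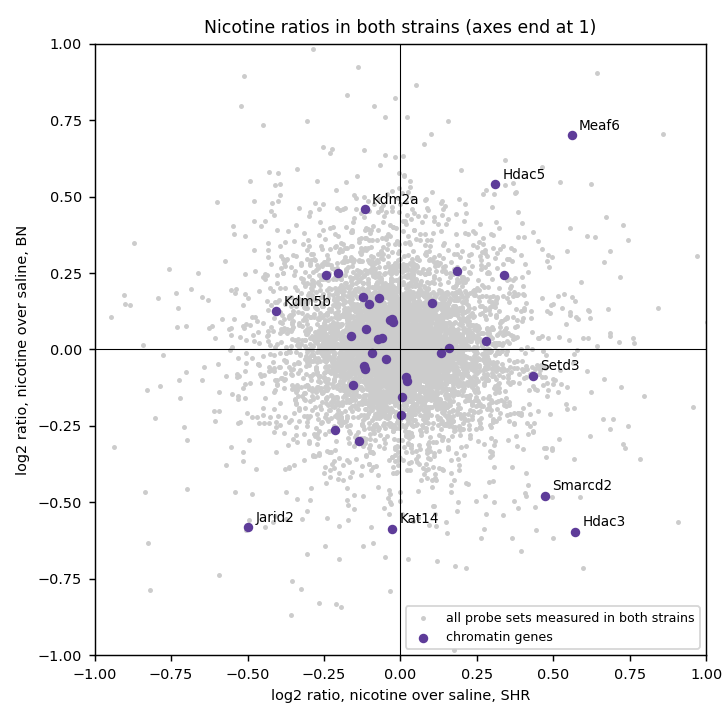
Log2 ratio of nicotine over saline in SHR (horizontal) and in BN (vertical) for probe sets measured in both strains; purple points are the chromatin genes, grey points all probe sets, and both axes end at 1, which leaves out some grey points. Meaf6 lies at 0.56 and 0.70, Jarid2 at -0.50 and -0.58, Hdac3 at 0.57 and -0.60, and most purple points lie within the grey cloud.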

How the data were processed

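Kidney RNA of 4 pools was measured on 1 array each. The deposited values are signal intensity for 15923 probe sets, which the authors made with MAS5, per the submitters' processing notes; the MAS5 version is not given in the sources used here. Every array had a 2% trimmed mean of 150.0, and no further scaling was applied. The 57 control probe sets were left out. Gene symbols came from the platform annotation, where 12783 of the other 15866 probe sets have 1 symbol, 312 several and 2771 none; updating them to current symbols left 76 members.

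Log2 ratios were computed from signals raised to the floor of 44.5. Averages over strains or treatments went through limma 3.58.1 under R 4.3.3 (additive model, intensity trend, Benjamini-Hochberg at 0.05), for probe sets whose higher group mean, taken on the floored log2 scale, reached the log2 of 89.0. Prior degrees of freedom were 16.51 for strain and 14.04 for nicotine. Comparisons of single pools have no test.

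The members and lists were chosen with earlier results of these data known. Genes to name were the calls for strain, the 4 largest ratios in each direction of the other comparisons, probe sets at least 1.5-fold apart, Meaf6, and the Polycomb, Dnmt and Tet genes; other genes were named after their values were seen. Alternatives covered the floor, filter, normalisation, trend, probe set choice, model and each array left out; nicotine as the only factor was added after seeing the data.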

Additional observations from a re-analysis of the deposited data

Results flagged for a closer look

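Hdac3 and Smarcd2 had nicotine ratios in opposite directions in the 2 strains, each at least 0.32 on the log2 scale. The log2 ratio of nicotine over saline for Hdac3 was 0.57 in SHR and -0.60 in BN. For Smarcd2 it was 0.47 in SHR and -0.48 in BN. Among probe sets measured in both strains, 2 of 38 chromatin probe sets had this pattern, against 0.953% of all 6608. With 1 pool per group the difference between strains was not tested, and both genes rest on 1 probe set.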

How the results depend on the processing

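No call for strain among the chromatin genes was kept in every alternative fit. Hdac6 passed in 12 of 13, the exception being the fit with no filter on low probe sets (adjusted p = 0.317), in which 0 of 15866 probe sets passed. The adjusted p of the other calls reached from 0.0331 to 0.508 (Hdac11), 0.0282 to 0.404 (Sirt5), 0.0176 to 0.434 (Smarca2), 0.0119 to 0.644 (Kat14) and 0.0167 to 0.693 (Jarid2). Beside 1 higher and 5 lower calls, there were 1 and 2 when the floor was the 20th percentile, 0 and 2 at the 60th, 0 and 0 with no filter, 0 and 1 after quantile normalisation, 0 and 1 after cyclic loess, 1 and 2 without the intensity trend, and 0 and 3 with strain as the only factor. With strain as the only factor and 1 array left out they were 0 to 0 higher and 1 to 2 lower. Over all probe sets, the count of 610 higher and 663 lower fell to 299 and 313 without the trend, to 355 and 389 after quantile normalisation, to 387 and 418 after cyclic loess, to 0 and 0 with no filter, to 493 and 548 with strain as the only factor, and in that model to 196 to 271 and 177 to 339 without 1 array. For the other chromatin genes, 3 higher and 5 lower became 1 and 3 (floor at the 20th percentile), 3 and 3 (60th), 0 and 0 (no filter), 1 and 2 (quantile, and again cyclic loess), 0 and 2 (no trend), 1 and 4 (strain only), 2 and 3 (1 probe set per gene) and, with strain only and without 1 array, 0 to 2 and 1 to 2. For nicotine, the count of chromatin genes stayed 0 in each alternative fit, in which at most 6 probe sets in 1 direction passed over all. Fits with nicotine as the only factor, on all arrays and without 1 array, were added after seeing the data and gave 0 calls, 0 also over all probe sets. Probe sets at least 1.5-fold apart numbered 0 in SHR, but 3 for a 20th percentile floor and 1 after quantile normalisation. In BN the 3 became 1 for a 60th percentile floor and 0 with a pseudocount. Between strains under nicotine the 1 became 5, 0 and 0 (floor at the 20th, at the 60th, pseudocount), and under saline the 3 became 6 and 1 (floor at the 20th, at the 60th). The median strain ratio under saline was -0.081 for a 60th percentile floor and -0.070 after cyclic loess, against -0.010. Over all probe sets, the 140 (nicotine, SHR), 113 (nicotine, BN), 603 (strain, nicotine) and 578 (strain, saline) at least 1.5-fold apart became 922, 719, 1575 and 1540 for a 20th percentile floor, 29, 18, 280 and 278 for a 60th percentile floor, 32, 28, 328 and 325 for the pseudocount, and in nicotine, SHR and BN, 268 and 186 with no filter. The cause of these shifts was not tested. The labels give no replicate numbers that pair arrays. The additive model itself compares strains within a treatment and treatments within a strain, and the fits with strain or nicotine as the only factor do not.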
